A study of Mus musculus with 9 samples.

Results

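The genes described here are those of mitochondrial and peroxisomal fatty acid oxidation, 30 listed genes for the activation of fatty acids, their passage into mitochondria on carnitine, and their breakdown. Of these, 28 could be read among the 18194 genes with a signal of their own. Acsl1 was not analysed here, and the only probe set of Cpt1b, the muscle form of carnitine palmitoyltransferase 1, is annotated to several genes and was therefore left without a value. Each gene was read from the probe set, a group of short probes for a transcript, with the highest mean signal over all arrays.

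Gene expression was measured on 9 one-colour 3 prime arrays in cardiomyocytes that had been grown from mouse embryonic stem cells, with 3 arrays each at day 10, day 20 and day 30, to follow how far such cells mature in culture. All groups came from the synp line, derived from R1 embryonic stem cells of the 129X1 x 129S1 background, in which the Ncx1 promoter drives the puromycin resistance gene PAC. The cytokines Activin A, BMP4, VEGF, bFGF and FGF10 drove the differentiation of all groups. Puromycin was given from day 7 with the stated aim of removing cells that are not cardiomyocytes, and the labels name no difference between the groups but the time in culture. This is a model made of a single line. Since it is not stated that replicates came from separate differentiations, p-values cover only the spread between these arrays, and that spread may be technical. The number of arrays limits the precision.

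Oxidation of a long-chain fatty acid begins when an acyl-CoA synthetase joins it to coenzyme A. Carnitine palmitoyltransferase 1 on the outer mitochondrial membrane passes the acyl group to carnitine, a translocase carries it across the inner membrane, and carnitine palmitoyltransferase 2 returns it to coenzyme A. A cycle of dehydrogenation, hydration, a second dehydrogenation and thiolysis then shortens the chain, and electrons leave through the electron transfer flavoprotein. The heart takes up this pathway as its main source of energy after birth, while peroxisomes shorten very long and branched chains.

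The labelled cell type was checked against its markers. Of 12 cardiomyocyte genes, the brightest were the myosin heavy chain genes Myh7, at 13.58, 13.81 and 14.08 (mean log2 signal at day 10, 20 and 30), and Myh6, at 13.09, 13.64 and 13.50. The summed log2 signal of the 12 genes ran from 131.03 to 139.66 over the day 10 arrays and from 139.70 to 141.66 over those of day 30, with day 10 replicate 1 the lowest, and 1 of them, Tnni3, rose (5 without day 10 replicate 3). Over all genes, 11.2% rose and 9.92% fell from day 10 to day 30 at an adjusted p under 0.05. Fibroblast markers moved with the time in culture: 11 of 12 rose from day 10 to day 30 with a median log2 difference of 3.67. Their summed signal was 82.34 to 93.47 at day 10, 121.11 to 133.99 at day 20 and 139.16 to 141.15 at day 30. Their brightest genes, Col1a2 and Col3a1, were at the 99.5 and 99.4 percentile of all genes. Poly-A control transcripts, spiked into the RNA ahead of labelling, read 5.24 and 5.09 in day 10 replicates 2 and 3 against 5.91 to 6.69 elsewhere. Day 30 replicate 2 had an 18S ribosomal RNA signal of 10.27, against 12.07 to 13.44 in the other arrays, of which day 10 replicate 3 was the highest. Its 3 prime minus 5 prime difference was 0.79 for actin, against 0.23 to 0.59, and 0.06 for Gapdh, against -0.22 to -0.14. The part of these values in the results was not tested, and 12 of the 28 genes rose to day 30 without day 10 replicate 3 and 10 without day 30 replicate 2, where 13 rose with all arrays. In bulk RNA, fewer cells of a type and less RNA per cell cannot be told apart.

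From day 10 to day 30, 13 of the 28 genes rose and none fell at an adjusted p under 0.05 (limma, adjusted over all genes), where 21.1% of all genes passed, 11.2% upward and 9.92% downward. The rises ran from 1.34-fold to 2.66-fold, and 6 of them were at least 2-fold. They were Acadvl, Cpt1a, Acadl, Ech1, Acot2 and Crat, of which Acadl and Crat stayed under 2-fold by the mean of all their probe sets. The median log2 difference of the 28 genes was 0.44, against -0.03 over all genes, and 24 of the 28 differences were above 0. At an unadjusted p under 0.05, 16 were higher and 1 lower, where 16.9% of all genes were higher and 17.3% lower. With each array centred on its median, which moved the median difference of all genes to -0.19, 8 of the 28 rose and 1, Acsl3, fell (the differences of Acadm, Hadha, Hadhb, Echs1 and Eci2 were 0.40, 0.45, 0.26, 0.28 and 0.27 and no longer passed), and 27.9% of all calls were rises in place of 53.0%.

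Most of this difference was present at day 20. From day 10 to day 20, 9 of the 28 rose (Acadvl, Cpt1a, Acadl, Ech1, Acaa2, Crat, Eci1, Eci2 and Slc25a20) and 1 fell (Acsl3), where 14.0% of all genes passed, 7.30% upward and 6.69% downward. The median log2 difference was 0.41, against -0.03 over all genes. Of the 9 rises, 8 were also called at day 30, and Acot2, Acadm, Hadha, Hadhb and Echs1 were called at day 30 only. Both comparisons use the same day 10 arrays. Without day 20 replicate 2 or without day 20 replicate 3, 3 of the 28 rose, and 7 rose from day 10 to day 30 without day 30 replicate 1.

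From day 20 to day 30 none of the 28 genes passed the limma test in either direction, where 0.335% of all genes did, and 1 was higher (Acot2) and 0 lower at an unadjusted p under 0.05, where 6.56% of all genes were higher and 4.29% lower. The median log2 difference was 0.03. The 13 genes that had risen by day 30 differed between day 20 and day 30 by -0.08 to 0.52, and 9 of the 13 differences were above 0. Those 13 were picked by the same day 30 arrays, which favours positive differences, so their count cannot show a further rise. Without that choice, 15 of the 28 differences were above 0, against 9296 of 18194 over all genes. The difference between the later and the earlier change was negative in 24 of the 28 genes, with a median of -0.32, against 8108 of 18194 and a median of 0.04 over all genes. None passed the limma test, where 0.478% of all genes passed and 0.324% passed downward. At an unadjusted p under 0.05, 1 was higher and 6 lower, where 7.88% of all genes were higher and 7.62% lower. Without day 10 replicate 3, Acadvl (-1.55, adjusted p = 0.0069) and Acadl (-1.25, adjusted p = 0.021) did.

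**Figure D1:**
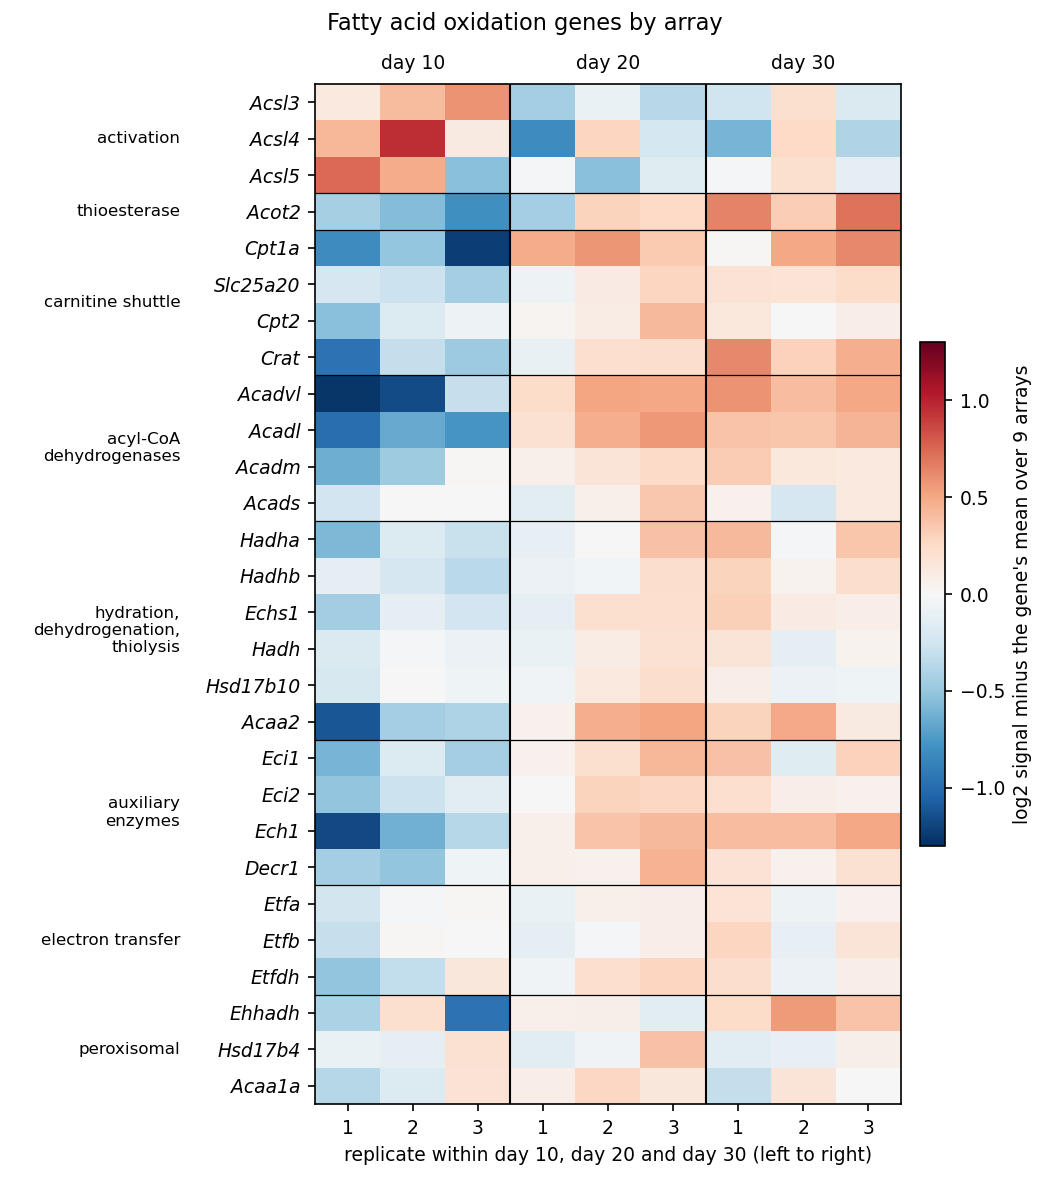
Heatmap of the log2 signal of each of the 28 genes (rows, grouped by step) in each of the 9 arrays (columns), minus the gene's mean over the arrays; red is above and blue below that mean. The median over the 28 genes was -0.44, -0.18 and -0.19 in the day 10 arrays, -0.05, 0.15 and 0.26 in those of day 20, and 0.22, 0.12 and 0.13 in those of day 30.

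**Figure D2:**
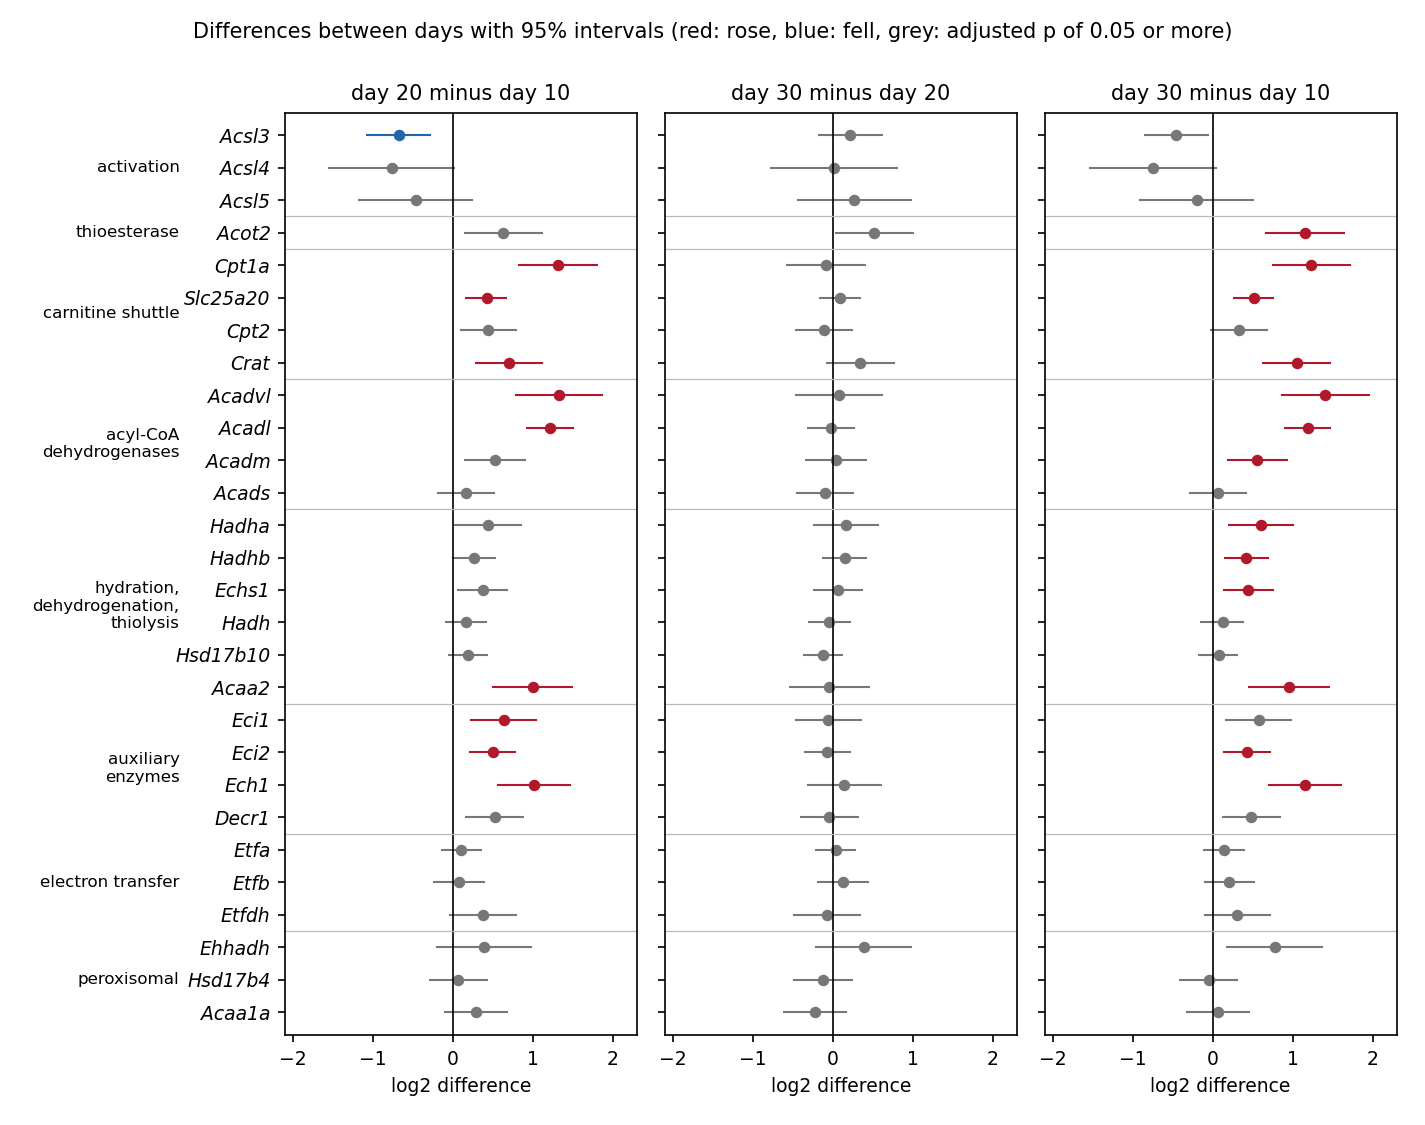
Log2 difference between days (points) with 95% intervals (lines) for the 28 genes, in 3 panels; red points rose and blue points fell at an adjusted p under 0.05. Red points are in 9 rows for day 20 minus day 10, in none for day 30 minus day 20 and in 13 for day 30 minus day 10.

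Promoter sequence is shown next for the genes with the clearest rises and for Hadha and Hadhb, which code for the subunits of one enzyme and lie head to head. RefSeq windows of 300 bases on the GRCm38.p6 build, from 250 bases before to 50 after the start of the gene, were found for 24 of the 28 genes. Each was searched on both strands for AGGTCANAGGTCA, the direct repeat that PPAR and RXR are known to bind, for its hexamer AGGTCA, which that repeat contains, for the GC box GGGCGG, and for TATAAA. Positions are counted from the start, with -1 the base just before it. Capitals mark the GC box in the stretches of Hadhb and Acadl, and the hexamer AGGTCA in those of Cpt1a and Acadvl. A marked motif reads in reverse complement where it lies on the other strand.

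The first transcribed bases of Hadha, 30154980 on the minus strand, and of Hadhb, 30155253 on the plus strand, have 272 bases between them, and their windows overlap by 228. The stretch printed is chr5:30155003-30155252 on the strand of Hadhb, -250 to -1, and its capitals mark 2 GC boxes. The first of these, at -90 from Hadhb, lies in both windows, at -188 from Hadha, and the second, at -25, runs past the end of the window of Hadha.
Hadhb: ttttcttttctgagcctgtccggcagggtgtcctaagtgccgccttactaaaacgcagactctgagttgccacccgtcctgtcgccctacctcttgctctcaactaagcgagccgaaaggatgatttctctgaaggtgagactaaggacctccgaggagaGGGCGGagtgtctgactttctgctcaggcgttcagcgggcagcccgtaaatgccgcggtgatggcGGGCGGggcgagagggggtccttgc
For Acadl, chr1:66863310-66863429 on the minus strand, -120 to -1, holds 4 GC boxes on the other strand.
Acadl: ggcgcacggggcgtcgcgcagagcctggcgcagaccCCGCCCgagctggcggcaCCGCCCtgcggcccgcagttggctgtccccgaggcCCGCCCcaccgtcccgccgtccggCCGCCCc
For Cpt1a, chr19:3323177-3323242 on the plus strand, and for Acadvl, chr11:70015480-70015545 on the minus strand, the hexamer AGGTCA begins at -94 and -87. The stretch of Cpt1a also holds a GC box on the other strand at -75, left in lower case.
Cpt1a: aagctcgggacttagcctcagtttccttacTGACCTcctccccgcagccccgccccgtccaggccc
Acadvl: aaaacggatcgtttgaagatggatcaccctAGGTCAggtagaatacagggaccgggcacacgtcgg

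The hexamer AGGTCA was found in 4 of the 24 windows (Cpt1a, Acadvl, Acadm and Echs1), or 16.7%, against 14.7% of the windows of 21263 protein-coding genes. The full repeat was in 0 of the 24 windows and in 10 of the 21263, or 0.0470%. The GC box was in 19 of the 24, or 79.2%, against 46.2%, and TATAAA in 0 of the 24 against 12.6%. A match describes these letters in these windows and is not shown to be a site.

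The carnitine shuttle is the step at which long-chain acyl groups enter mitochondria, and Crat, which acts on acetyl groups, was listed with it. Of the 4 measured genes of this list, 3 (Cpt1a, Crat and Slc25a20) rose from day 10 to day 30. The share over all genes was 11.2%, and the median log2 difference of the 4 was 0.78. Cpt1a, the liver form of carnitine palmitoyltransferase 1 and the control point of the pathway, read 7.35, 7.66 and 6.94 at day 10 (log2, replicates 1 to 3), 8.65, 8.74 and 8.51 at day 20, and 8.19, 8.67 and 8.79 at day 30. All arrays of the later days lay above all those of day 10, and day 20 and day 30 overlapped. It rose by 1.32 to day 20 (SE 0.21, adjusted p = 0.0075) and by 1.23 to day 30 (SE 0.21, adjusted p = 0.0055). Crat, the acetyl-carnitine transferase of the matrix, read 7.25, 7.90 and 7.74, then 8.12, 8.43 and 8.44, then 8.84, 8.52 and 8.68. The 3 days did not overlap. It rose by 0.70 to day 20 (adjusted p = 0.039) and by 1.05 to day 30 (SE 0.18, adjusted p = 0.0056). With the mean of all its probe sets these values were 0.33 (adjusted p = 0.064) and 0.62 (adjusted p = 0.0047), and its second probe set, with a mean signal of 7.91 against 8.21, gave 0.60 to day 30.

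Slc25a20, the carnitine-acylcarnitine translocase of the inner membrane, read 9.25, 9.19 and 9.03 at day 10, 9.41, 9.58 and 9.75 at day 20, and 9.66, 9.65 and 9.71 at day 30. The day 30 arrays lay close together and above all those of day 10. It rose by 0.42 to day 20 (adjusted p = 0.039) and by 0.52 to day 30 (SE 0.11, adjusted p = 0.013). The rises to day 20 of Slc25a20 and Crat were lost without each of 8 and 7 of the arrays, with adjusted p up to 0.11 and 0.13, and their rises to day 30 were kept without each array. Cpt2, which returns the acyl group to coenzyme A, averaged 9.44 ± 0.25, 9.89 ± 0.21 and 9.78 ± 0.08 (SD, n = 3). All its arrays of day 20 and day 30 lay above those of day 10, and the differences of 0.44 to day 20 and 0.33 to day 30 did not pass the limma test (adjusted p = 0.092 and 0.17), that to day 20 passing without day 10 replicate 3 (0.54, adjusted p = 0.041).

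The acyl-CoA dehydrogenases open each round of the cycle, and they differ in the chain length they accept. Of these 4 genes 3 rose to day 30 (11.2% of all genes did), with a median log2 difference of 0.88. Acadvl, the very long-chain enzyme of the inner membrane, read 9.09, 9.19 and 10.05 at day 10, 10.59, 10.87 and 10.86 at day 20, and 10.94, 10.75 and 10.86 at day 30. The groups of day 10 and of the later days did not overlap, and day 10 replicate 3 was the highest of its day. It rose by 1.33 to day 20 (SE 0.24, adjusted p = 0.011) and by 1.41 to day 30 (SE 0.24, adjusted p = 0.005), a fold of 2.66. Acadl, the long-chain enzyme, read 10.73, 11.05 and 10.94, then 11.91, 12.19 and 12.28, then 12.08, 12.07 and 12.15. Day 20 and day 30 overlapped, and all their arrays lay above day 10. Acadl rose by 1.21 to day 20 (adjusted p = 0.0012) and by 1.19 to day 30 (SE 0.12, adjusted p = 0.00069), the lowest adjusted p of the 28 genes. Its second probe set was dim, at 3.58 to 3.80 by day, and with the mean of both the rises were 0.65 and 0.71 (adjusted p = 0.0025 and 0.00081).

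Acadm, the medium-chain enzyme, read 11.37, 11.54 and 12.02 at day 10, 12.07, 12.17 and 12.26 at day 20, and 12.33, 12.14 and 12.13 at day 30. Its day 10 replicate 3 lay just under the lowest later array. The rise of 0.56 to day 30 (SE 0.16, adjusted p = 0.042) was lost without each of 8 of the 9 arrays (adjusted p up to 0.13), the exception being day 10 replicate 3, without which its rise to day 20 passed as well (0.71, adjusted p = 0.0041). Acads, the short-chain enzyme, averaged 8.71 ± 0.14, 8.88 ± 0.24 and 8.78 ± 0.18 (SD, n = 3). Its arrays overlapped between all days, and its difference of 0.07 to day 30 had a 95% interval from -0.28 to 0.42.

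Of the 6 genes for hydration, the second dehydrogenation and thiolysis, 4 rose to day 30 (11.2% of all genes did). Their median log2 difference was 0.43. Acaa2, the thiolase of the matrix, read 9.78, 10.44 and 10.49 at day 10, 10.94, 11.35 and 11.40 at day 20, and 11.17, 11.38 and 11.004 at day 30. All later arrays lay above day 10, where replicate 1 was the lowest. It rose by 0.998 to day 20 (adjusted p = 0.021) and by 0.95 to day 30 (SE 0.21, adjusted p = 0.017). Without day 20 replicate 2 or replicate 3, the adjusted p of its rise to day 20 was 0.079 or 0.075. Without day 30 replicate 1 or replicate 2, that of its rise to day 30 was 0.051 or 0.060.

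Hadha and Hadhb encode the alpha and beta subunits of the trifunctional protein, which carries out the last steps for long chains. Hadha read 9.94, 10.34 and 10.23, then 10.41, 10.52 and 10.90, then 10.94, 10.51 and 10.88. Hadhb read 11.13, 11.03 and 10.90, then 11.18, 11.21 and 11.47, then 11.54, 11.30 and 11.48. In both genes every later array lay above day 10, and within the later days the highest arrays were day 20 replicate 3 and day 30 replicates 1 and 3. To day 20 they differed by 0.44 and 0.27, which did not pass the test (adjusted p = 0.14 and 0.17). To day 30 Hadha rose by 0.60 (SE 0.18, adjusted p = 0.044) and Hadhb by 0.42 (SE 0.12, adjusted p = 0.037), and these calls were lost without each of 7 and 5 of the 9 arrays (adjusted p up to 0.14 and 0.12). Hadhb was read from a probe set of the kind that may also bind other transcripts. On its brightest probe set not of that kind the difference was 0.48, and the call was lost.

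Echs1, the short-chain enoyl-CoA hydratase, read 10.49, 10.83 and 10.69 at day 10, 10.82, 11.15 and 11.16 at day 20, and 11.25, 11.05 and 11.03 at day 30. Day 20 replicate 1 overlapped with day 10, and the day 30 arrays did not. The rise of 0.44 to day 30 (SE 0.13, adjusted p = 0.048) was lost without each of 8 of the 9 arrays (adjusted p up to 0.15), the exception being day 20 replicate 1. Hadh, the short-chain hydroxyacyl-CoA dehydrogenase, averaged 11.59 ± 0.09, 11.75 ± 0.15 and 11.71 ± 0.15 (SD, n = 3). Hsd17b10, a related dehydrogenase that is also part of mitochondrial RNase P, averaged 10.68 ± 0.11, 10.88 ± 0.14 and 10.76 ± 0.09 (SD, n = 3). Both overlapped between the days, with 95% intervals of the difference to day 30 from -0.14 to 0.38 for Hadh and from -0.17 to 0.31 for Hsd17b10.

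The auxiliary enzymes move the double bonds of unsaturated fatty acids or, for Decr1, reduce them, so that the chains can enter the cycle. Of the 4 genes 2 rose to day 30 (11.2% of all genes did), with a median log2 difference of 0.53. Ech1, a dienoyl-CoA isomerase, read 9.22, 9.77 and 10.03 at day 10, 10.46, 10.77 and 10.82 at day 20, and 10.80, 10.80 and 10.90 at day 30. All later arrays lay above day 10. It rose by 1.01 to day 20 (SE 0.20, adjusted p = 0.015) and by 1.16 to day 30 (SE 0.20, adjusted p = 0.0052). Without day 20 replicate 2 or replicate 3, the adjusted p of the rise to day 20 was 0.059 or 0.055, and the rise to day 30 was kept without each array.

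Eci1 and Eci2 are enoyl-CoA isomerases, and both moved within a narrow range. Eci2 read 10.02, 10.26 and 10.41, then 10.55, 10.83 and 10.81, then 10.76, 10.62 and 10.60. Eci1 read 9.48, 9.90 and 9.64, then 10.13, 10.28 and 10.51, then 10.45, 9.92 and 10.37. Every later array was above day 10 in both, although day 30 replicate 2 of Eci1 lay only just above day 10 replicate 2. Eci2 rose by 0.50 to day 20 (adjusted p = 0.035) and by 0.43 to day 30 (adjusted p = 0.043), and both calls were lost without each of 7 of the 9 arrays (adjusted p up to 0.12 and 0.13). Eci1 rose by 0.63 to day 20 (adjusted p = 0.049), which was lost without each of 8 arrays (adjusted p up to 0.15), and its difference of 0.58 to day 30 did not pass (adjusted p = 0.052), although it did without day 30 replicate 2 (0.74, adjusted p = 0.025) and, just under the threshold, without day 10 replicate 2. Decr1, the dienoyl-CoA reductase, averaged 9.67 ± 0.25, 10.20 ± 0.23 and 10.16 ± 0.08 (SD, n = 3). Its later arrays all lay above day 10, and neither 0.53 to day 20 nor 0.48 to day 30 passed (adjusted p = 0.059 for each). Without day 10 replicate 3 both did (0.67 and 0.62, adjusted p = 0.012 and 0.014), and 0.48 to day 30 passed without day 20 replicate 3 (adjusted p = 0.048).

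Acot2 is a thioesterase of the matrix that frees fatty acids from coenzyme A. It read 8.77, 8.63 and 8.41 at day 10, 8.76, 9.49 and 9.46 at day 20, and 9.84, 9.52 and 9.90 at day 30. Day 20 replicate 1 stood with the day 10 arrays, and all arrays of day 30 lay above those of both earlier days. Acot2 rose by 1.15 to day 30 (SE 0.21, adjusted p = 0.0072), of which 0.63 lay before day 20 (adjusted p = 0.087; 0.022 without day 20 replicate 1) and 0.52 after it (adjusted p = 0.43). Acot1, a near-identical neighbour in sequence whose transcript the probes of Acot2 may share, differed by 0.81 on its own probe set (adjusted p = 0.11). Without day 10 replicates 2 and 3, the arrays with the lowest spikes, the rise of Acot2 was 0.99 (adjusted p = 0.066) and that of Slc25a20 0.42 (adjusted p = 0.097), and 11 of the 28 genes rose.

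**Figure D3:**
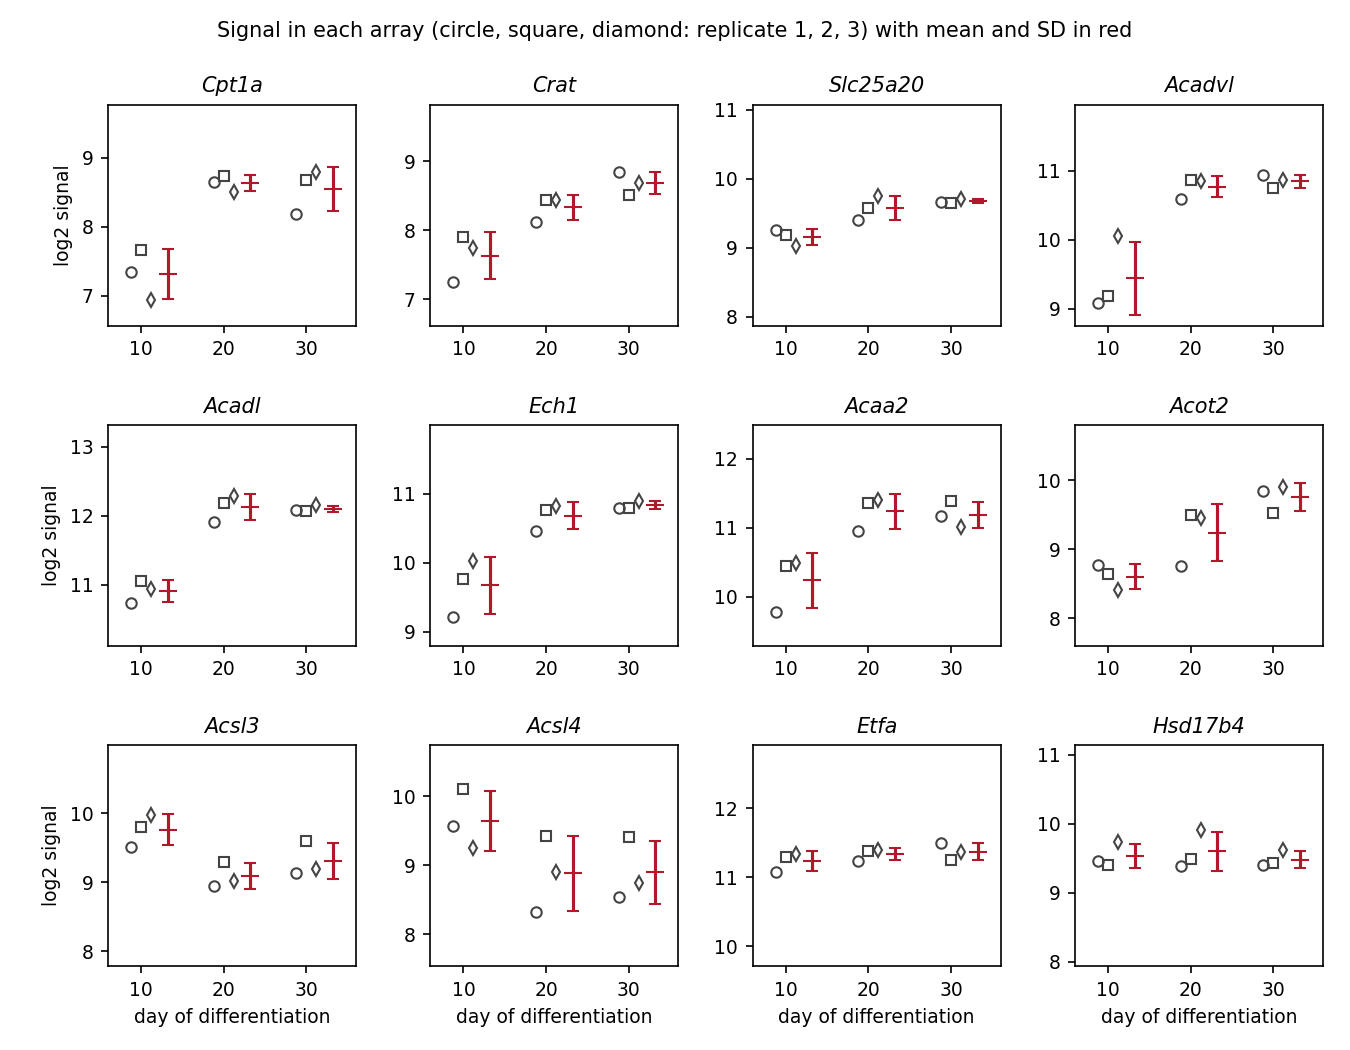
Log2 signal of 12 of the genes in each array (open symbols, 3 per day) with the day's mean and SD (red, n = 3); every panel spans the same range on the log2 scale. In the first 7 panels the day 10 arrays lie under all later ones, Acot2 is highest at day 30, and the Etfa and Hsd17b4 arrays overlap between days.

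The measured genes of fatty acid activation did not rise, and Acsl1, the remaining listed gene of this step, was not analysed. All 3 measured acyl-CoA synthetase genes had negative differences, with a median of -0.67 to day 20 and -0.45 to day 30, and 1 call among them. The share of all genes that fell was 6.69% to day 20 and 9.92% to day 30. Acsl3, the form found on the endoplasmic reticulum and lipid droplets, read 9.51, 9.80 and 9.97 at day 10, 8.94, 9.30 and 9.02 at day 20, and 9.13, 9.60 and 9.19 at day 30. The day 20 arrays lay under those of day 10, and day 30 replicate 2 overlapped with day 10. It fell by 0.67 to day 20 (SE 0.17, adjusted p = 0.037), which was lost without each of 7 of the 9 arrays (adjusted p up to 0.11), and its difference of -0.45 to day 30 did not pass (adjusted p = 0.099). Acsl4, which prefers arachidonic acid, averaged 9.64 ± 0.43, 8.88 ± 0.55 and 8.89 ± 0.45 (SD, n = 3). Acsl5 averaged 8.51 ± 0.68, 8.04 ± 0.27 and 8.31 ± 0.17 (SD, n = 3). On the brightest probe set of each gene, both overlapped between the days and neither passed the test in any comparison (adjusted p = 0.17 and 0.71 to day 30). The dimmer probe sets of Acsl4, with mean signals of 7.78 and 6.26, differed by -0.82 and -1.18 to day 30. In the dimmest, all arrays of day 20 and day 30 lay under those of day 10. In the brighter of these, the day 20 arrays did, and day 30 overlapped with day 10. Without day 10 replicate 3, Acsl5 fell to day 20 (-0.85, adjusted p = 0.013) and to day 30 (-0.58, adjusted p = 0.047).

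None of the 3 genes for electron transfer passed, with a median log2 difference of 0.21 to day 30. To day 30, 21.1% of all genes passed, and 3 genes are too few to tell none from that share. Etfa and Etfb encode the subunits of the electron transfer flavoprotein, which averaged 11.23 ± 0.14 and 11.02 ± 0.18 at day 10 and 11.37 ± 0.12 and 11.23 ± 0.20 at day 30 (SD, n = 3). Etfdh, the oxidoreductase that hands these electrons to ubiquinone, averaged 10.21 ± 0.34 at day 10, 10.59 ± 0.18 at day 20 and 10.52 ± 0.15 at day 30 (SD, n = 3). Arrays of the days overlapped in all 3 genes. The 95% intervals of the difference to day 30 ran from -0.11 to 0.39 for Etfa, from -0.10 to 0.52 for Etfb and from -0.10 to 0.72 for Etfdh. Without day 10 replicate 3, Etfdh rose to day 20 (0.57, adjusted p = 0.024) and to day 30 (0.50, adjusted p = 0.036).

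Likewise none of the 3 peroxisomal genes passed, again too few to tell from the 21.1% of all genes that passed to day 30. Ehhadh, the peroxisomal bifunctional enzyme, was the dimmest of the 28 genes, at the 36.6 percentile of all genes, and read 4.96, 5.58 and 4.41 at day 10 and 5.61, 5.92 and 5.74 at day 30. The day 30 arrays lay above all others, and the difference of 0.78 did not pass (adjusted p = 0.068), although it did without day 10 replicate 2 (1.07, adjusted p = 0.0095). Hsd17b4, the second bifunctional enzyme, averaged 9.53 ± 0.18 at day 10 and 9.48 ± 0.12 at day 30 (SD, n = 3). Acaa1a, a peroxisomal thiolase, averaged 6.75 ± 0.29 at day 10 and 6.82 ± 0.24 at day 30 (SD, n = 3), a difference of 0.07, while its other probe set gave 0.76. Both of its probe sets are of the kind that may also bind other transcripts, and it has the near-identical paralogue Acaa1b, so its value is uncertain.

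Most of the genes were bright. By mean signal over all arrays, 16 of the 28 lay above the 90th percentile of all genes, up to Acadm at the 98.6 percentile, and 1, Ehhadh, lay under the median of all genes, at the 36.6 percentile. Of the 28, 17 had all day 30 arrays above all day 10 arrays, where 17.4% of all genes did, and none had them all below, where 18.8% did. From day 10 to day 20, 14 were separated upward, where 14.5% of all genes were, and 1 downward, where 17.3% were, and from day 20 to day 30 only Acot2, Crat and Ehhadh were separated, where 11.7% of all genes lay higher and 9.72% lower. There were 16 genes with further probe sets, and 22 of these 23 further probe sets had the sign of the brightest for day 30 against day 10. All 11 further probe sets of the genes that rose had the same sign.

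The other genes of the pathway were read from the same fit, in which 11.2% of all genes rose and 9.92% fell from day 10 to day 30. Of 14 genes for carnitine uptake, malonyl-CoA and further mitochondrial steps, 3 rose to day 30 and none fell (4 and 1 without day 10 replicate 3), with a median log2 difference of 0.33. Slc22a5, the carnitine importer of the plasma membrane, went from 7.61 ± 0.21 to 8.24 ± 0.16 (SD, n = 3; adjusted p = 0.011). Acat1, a thiolase of ketone body and isoleucine breakdown, went from 10.10 ± 0.41 to 11.21 ± 0.18 (SD, n = 3), a rise of 1.12 (adjusted p = 0.006). Acot7, a cytosolic thioesterase, rose by 1.31 (adjusted p = 0.050, just under the threshold), which was lost without each of 7 arrays (adjusted p up to 0.13). The enzymes of Acaca and Acacb make malonyl-CoA, which inhibits carnitine palmitoyltransferase 1. Acaca, Acacb and Mlycd are named here after their values were seen. Acaca fell by 1.20 to day 20 (adjusted p = 0.0056), and its difference of -0.54 to day 30 did not pass (adjusted p = 0.066). Acacb had the other sign, at 0.55 to day 20 and 0.71 to day 30, and did not pass (adjusted p = 0.19 and 0.083). Mlycd differed by 0.17 and 0.23 and did not pass (adjusted p = 0.52 and 0.34). Whether the inhibition changed was not tested.

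Of 18 further peroxisomal lipid genes, 3 rose to day 30 and 2 fell (3 and 3 with each array centred on its median, 6 and 2 without day 10 replicate 3). Over all genes, 11.2% rose and 9.92% fell. Nudt7, a coenzyme A diphosphatase, averaged 7.05 ± 0.43 at day 10 and 8.96 ± 0.16 at day 30 (SD, n = 3), a rise of 1.92 (adjusted p = 0.0012). Phyh, which starts the breakdown of phytanic acid, rose by 1.33 (adjusted p = 0.006), and the sterol carrier gene Scp2 by 0.76 (adjusted p = 0.015; 0.055 without day 30 replicate 3). Abcd2, a peroxisomal transporter of very long-chain acyl-CoA, fell by 0.83 (adjusted p = 0.0013) from a low signal of 4.70 ± 0.09 (SD, n = 3), and the thioesterase Acot8 fell by 0.45 (adjusted p = 0.048), a call lost without each of 8 arrays. Of 13 peroxisome assembly genes, Pex3 (0.41, adjusted p = 0.0081) and Pex2 (0.37, adjusted p = 0.045) rose and Pex14 fell by 0.42 (adjusted p = 0.030). With arrays centred on their median, neither rise passed, and leaving out each array in turn gave 1 to 4 rises, 4 without day 10 replicate 3. The call of Pex2 was lost without each of 8 arrays and that of Pex14 without day 10 replicate 1 or without replicate 1 or 2 of day 30 (adjusted p up to 0.092).

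Genes of the mitochondrion, mostly for import, carriers and chaperones, were read as a comparison. The list as chosen also named Cs (citrate synthase) and Tfam, which are none of these. Of the 17 measured genes of this list none rose and 7 fell from day 10 to day 30, with a median log2 difference of -0.21 (-0.37 and 10 falls with each array centred on its median). Over all genes, 11.2% rose and 9.92% fell. Hspd1, the mitochondrial chaperonin HSP60, read 12.51, 12.35 and 12.12 at day 10 and 11.37, 11.13 and 11.39 at day 30. The days did not overlap, and it fell by 1.03 (SE 0.13, adjusted p = 0.0015). Phb2, a prohibitin of the inner membrane, fell by 0.85 (adjusted p = 0.011), and Tomm70a, an import receptor, by 0.70 (adjusted p = 0.014). Without day 10 replicate 1 or without day 30 replicate 2, 3 of the 17 fell, and 4 fell without day 10 replicate 2. Whether this list and the fatty acid oxidation genes differ was not tested.

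**Figure D4:**
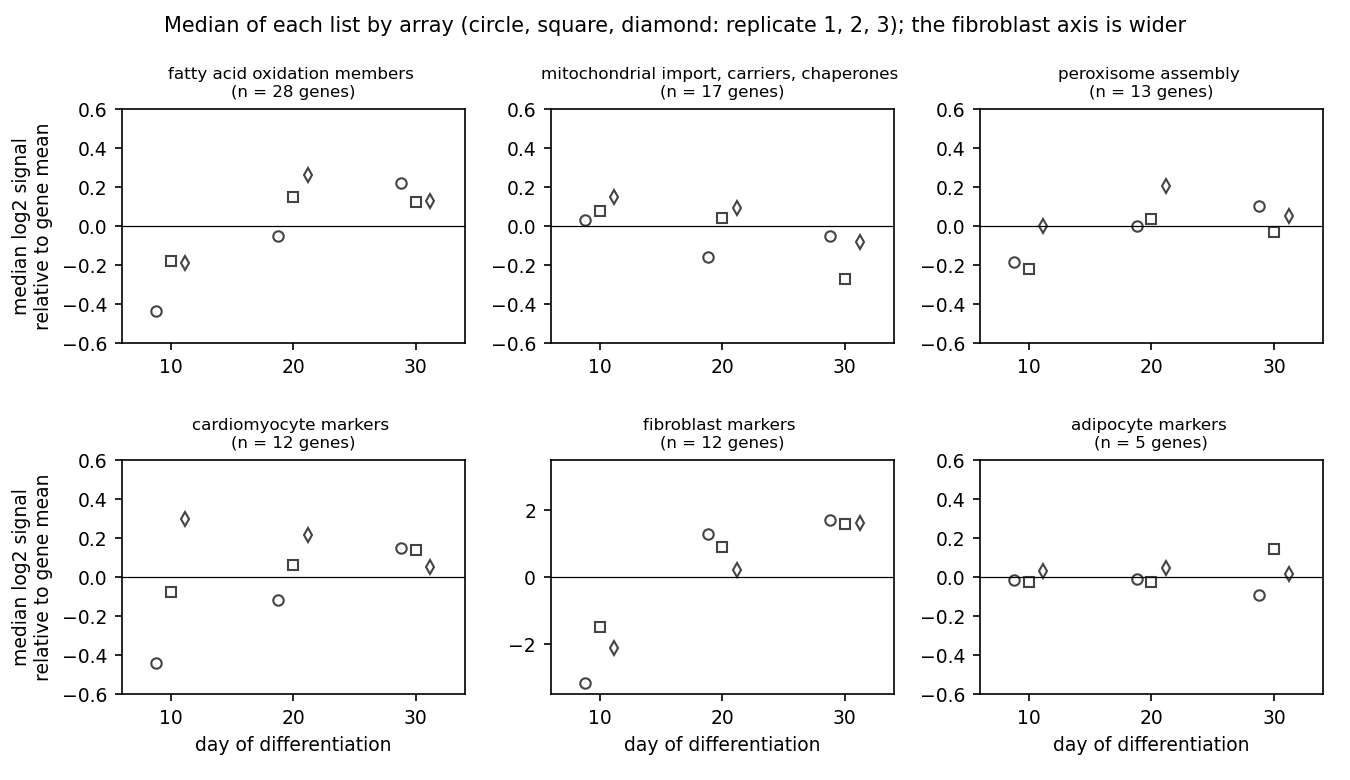
Median log2 signal of 6 gene lists in each array (open symbols), relative to each gene's mean over the 9 arrays, by day; the fibroblast panel has a wider axis. The fatty acid oxidation genes lie at -0.44 to -0.18 at day 10 and at 0.12 to 0.22 at day 30, the cardiomyocyte markers overlap between the days, and the fibroblast markers are low at day 10 and high at day 30.

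Markers of other cells were set beside these changes, where 11.2% of all genes rose and 9.92% fell from day 10 to day 30. The fibroblast list rose over the same interval as the fatty acid oxidation genes, as given above, and day 10 replicate 1 was lowest in its sum, in that of the cardiomyocyte list and in the median of the 28 genes. Without that array 9 of the 28 rose to day 30. Adipocytes also oxidise fatty acids: of 5 adipocyte markers 1, Fabp4, rose to day 30 (4.02, adjusted p = 0.0024), while the median difference of the list was -0.007. The summed signal of the list was 21.79 to 21.90 at day 10, 23.93 to 24.36 at day 20 and 23.98 to 27.15 at day 30. Retn was the other of the brightest genes, and Adipoq, which defines the cell type, stayed near the floor at the 3.6 percentile. Of 8 endoderm and hepatocyte markers, led by Ttr and Hnf4a, 0 passed in either direction in the limma test (at an unadjusted p under 0.05, 0 higher and 0 lower), all lay under the 43rd percentile, and their sum was 39.58 to 39.89 at day 10 and 38.78 to 39.79 at day 30. Of 7 skeletal muscle markers 1, Ckm, which the heart also uses, rose, and Actn3 came next in signal. The summed signal was 32.28 to 32.58 at day 10 and 37.58 to 38.57 at day 30. The highest difference in this list was 6.05, its median was -0.03, and 4 of the 7 differences were negative.

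In the remaining lists, 2 of 6 smooth muscle markers rose and 2 fell, and 0 of 7 endothelial markers rose and 1 fell. Of 5 blood and macrophage markers 1 rose, and of 6 neural markers 0 rose and 3 fell. The brightest genes, named by signal and not by change, were Acta2 and Tagln for smooth muscle and Kdr and Tek for endothelium. They were Lyz2 and Adgre1 for blood and macrophages, and Nes and Pax6 for neural cells. Over all genes, 11.2% rose and 9.92% fell. Leaving out each array in turn gave 0 to 4 endothelial and 0 to 5 neural falls, the highest without day 10 replicate 1 and day 10 replicate 3. Their summed signals at day 10 and day 30 were 56.12 to 58.57 and 53.56 to 60.49 for smooth muscle, and 31.30 to 42.41 and 30.72 to 33.30 for endothelium. They were 21.86 to 23.14 and 23.92 to 26.38 for blood and macrophages, and 35.19 to 38.12 and 28.89 to 32.54 for neural cells. The part of fibroblasts or other cells in the changes of the fatty acid oxidation genes was not tested.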

How the data were processed

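Per the labels' protocols, RNA was labelled with biotin by a 3 prime kit. The deposited table holds 1 log2 signal for each probe set and array. No source used here gives the authors' normalization or log base, so base 2 was inferred from the range of 2.77 to 14.52. Array medians were 5.48 to 5.56. In the platform annotation, 34958 of the 45101 probe sets name 1 gene, 932 several and 9211 none, and only the first kind was used. A gene was read from its probe set with the highest mean, with no filter.

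Day means were estimated from the 9 arrays together by limma 3.58.1 (lmFit, eBayes; R 4.3.3), leaving 6 residual and 2.18 prior degrees of freedom. Tests were two-sided, with Benjamini-Hochberg adjustment over 18194 genes and a threshold of 0.05. The fit was tested on simulated data. The genes, lists and tests were chosen with earlier results of these data known. All listed genes are named, those called with each array's value; of other pathway lists the 3 lowest adjusted p in each direction, and of markers the 2 brightest. Alternatives changed the normalization, the dim-gene filter, the probe set, the array weights, the variance prior, the arrays fitted and the replicate block. Set tests were not run. The planned differences of Cpt1b or Acsl1 to other isoforms could not be computed. Promoter windows came from RefSeq.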

Additional observations from a re-analysis of the deposited data

How the results depend on the processing

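No difference of the 28 genes changed sign past the threshold. To day 30, 7 of the 13 rises were kept without each array in turn and under each other setting except the one added later, and to day 20, 3 of 9. The 9 rises and 1 fall to day 20 became 5 rises with each array centred on its median, 14 rises and 3 falls with array weights, 3 and 0 with only the days compared, and 0 falls with the mean of all probe sets or without shared probe sets. The 13 rises to day 30 became 8 with centring or with only the days compared, and the 0 falls became 1 with centring or the mean of all probe sets and 2 with weights. The difference between intervals gave 2 negative calls with weights, and 4 without day 10 replicates 2 and 3, an alternative chosen after seeing the data that leaves day 10 with 1 array assumed to vary like the others. Leaving out each array in turn gave 3 to 11 rises and 0 to 1 falls to day 20, 7 to 12 rises and 0 to 1 falls to day 30, and 0 to 2 negative calls between intervals. From day 20 to day 30 every alternative gave 0. The causes were not tested.

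The replicate numbers were checked for pairing: deviations of same-numbered arrays correlated at -0.15 to 0.43, and 8 of 18 array and day pairs correlated best with their own number. With 3 arrays per day this check cannot settle whether same-numbered arrays share an origin, which is not stated. With the replicate block, 6 rose and 2 fell to day 20, 10 rose and 1 fell to day 30, and none passed in the other comparisons. Probe signal over background was not available here to set what dim genes such as Ehhadh can show.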
